A study of Drosophila melanogaster with 2 samples.

Results

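Peaks of the Eip93F-GFP fusion protein at promoters of single protein-coding genes numbered 923 of the 3401 reproducible peaks on dm6, or 27.1% (95% Wilson interval 25.7 to 28.7%, which covers counting error only). A peak belonged to this class when its summit, the base at which the authors placed the top of the peak, lay within 500 bp of the transcription start site (TSS) of a protein-coding gene. Summits within 500 bp of a TSS of a divergent pair were left out; in such a pair, TSSs of 2 protein-coding genes at most 1000 bp apart are read outward from the space between them. Divergent promoters held another 576 peaks (16.9%), and 1902 peaks (55.9%) lay outside protein-coding promoters. The class was thus defined by position, with no use of signal or sequence. Its 923 summits were nearest to 781 genes, and 902 of them (97.7%) had 1 protein-coding gene within 500 bp.

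The data are ChIP-seq peak lists from whole Drosophila melanogaster prepupae of the strain Eip93F-MiMIC-GFP, in 2 biological replicates of a single group. An eGFP exon inserted in an intron of the endogenous Eip93F gene makes the tagged protein, which was precipitated with an antibody against GFP after sonication. Both replicates carried the insertion and came from animals of mixed sex whose age is given as unknown. Whole animals hold every tissue, so a peak cannot be assigned to a cell type, and the lists carry no read counts, so the depth behind them is unknown.

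Eip93F encodes E93, a DNA-binding protein of the Pipsqueak family that is induced by the steroid hormone ecdysone. Around the prepupal stage it is known for its part in the death of larval tissues and in the change of enhancer activity in tissues that form the adult. A promoter is the DNA around a TSS at which RNA polymerase II is assembled. In flies, some promoters carry a TATA box bound by the TATA-binding protein Tbp, and some the element bound by Dref. Many carry GA-rich runs bound by GAGA factor, the product of Trl, which helps to keep promoters free of nucleosomes. Short sequences named later for Tbp, Dref, Trl or other factors are sequence matches only. Binding of these factors was not measured.

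The 61 bp centred on a summit are given for the 6 strongest of these peaks whose summit window held no annotated exon, with the strand of the nearest gene read 5′ to 3′ (RefSeq genome, dm6). Capitals mark the Tbp word TATAAA on either strand, and no match to the Dref, GATA or Trl words described later fell in these 6 windows.
ph-p (chrX:2137297-2137357, minus strand): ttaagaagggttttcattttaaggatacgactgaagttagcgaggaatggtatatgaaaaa
CG18549 (chr3R:12449182-12449242, plus strand): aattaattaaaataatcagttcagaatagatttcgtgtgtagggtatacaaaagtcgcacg
Hsp27 (chr3L:9383881-9383941, plus strand): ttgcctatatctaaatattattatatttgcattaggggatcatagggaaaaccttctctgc
CG14100 (chr3L:19590585-19590645, minus strand): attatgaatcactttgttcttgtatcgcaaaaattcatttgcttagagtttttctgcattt
Gapdh2 (chrX:15867931-15867991, plus strand): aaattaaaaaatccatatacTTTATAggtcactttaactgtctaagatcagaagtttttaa
CG13921 (chr3L:1746742-1746802, plus strand): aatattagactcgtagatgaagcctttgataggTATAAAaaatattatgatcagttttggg

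The next 5 windows show summits that held a word found more often at summits than beside them. Capitals mark the Tbp word at Btk, the Dref word ATCGATA for MESR6 and CG11151 (both strands, overlapping matches in the window of CG11151), and the GATA word GATAAG for gro and CG4586.
Btk (chr2L:8277836-8277896, minus strand): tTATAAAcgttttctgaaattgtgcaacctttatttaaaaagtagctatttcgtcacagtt
CG11151 (chrX:13739461-13739521, plus strand): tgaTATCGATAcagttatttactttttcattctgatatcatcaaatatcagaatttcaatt
MESR6 (chr3L:19092581-19092641, plus strand): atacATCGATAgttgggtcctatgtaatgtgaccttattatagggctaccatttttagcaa
CG4586 (chrX:6969451-6969511, plus strand): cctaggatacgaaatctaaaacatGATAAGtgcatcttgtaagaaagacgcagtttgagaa
gro (chr3R:26042469-26042529, plus strand): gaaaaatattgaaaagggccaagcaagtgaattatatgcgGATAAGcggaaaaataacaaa

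The last set shows the 150 bp just upstream of the main TSS of 3 promoters among the strongest of those with 3 or more matches to the Trl word GAGAG, in capitals on either strand. The strongest summit lay outside the window at larp, 334 bp upstream of the TSS, and at E23, 184 bp upstream, and inside it at Syp, 128 bp upstream.
larp (chr3R:28326265-28326414, minus strand): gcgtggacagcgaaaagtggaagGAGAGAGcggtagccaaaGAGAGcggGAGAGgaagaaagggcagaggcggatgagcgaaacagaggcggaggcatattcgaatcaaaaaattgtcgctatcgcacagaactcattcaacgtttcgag
E23 (chr2L:3354830-3354979, minus strand): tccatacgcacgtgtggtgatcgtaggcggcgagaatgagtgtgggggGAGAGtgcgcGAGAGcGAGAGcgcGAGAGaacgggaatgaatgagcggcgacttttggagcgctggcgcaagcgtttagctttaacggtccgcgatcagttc
Syp (chr3R:20778745-20778894, plus strand): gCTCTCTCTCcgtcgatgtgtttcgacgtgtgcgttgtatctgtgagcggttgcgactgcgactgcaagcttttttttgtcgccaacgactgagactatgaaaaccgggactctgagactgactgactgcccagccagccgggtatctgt

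Summits lay mostly upstream of the TSS. Of the 923 peaks, 707 (76.6%, Wilson interval 73.8 to 79.2%) had a summit upstream of the nearest protein-coding TSS, against 2831 of 4255 (66.5%) lower-ranked entries of the pooled list that met the same rule of position. The difference was 10.1 percentage points (95% Newcombe interval 6.90 to 13.0, Fisher's exact test, two-sided, p = 1.33e-09). The lower-ranked entries were those that overlapped no reproducible peak, and they serve as the background of the same experiment. Against only the lower-ranked entries nearest in rank, the background share was 72.4% and the p was 0.0418. When the class was rebuilt from each replicate's own leading entries, the upstream share was 75.6% in replicate 1 and 78.2% in replicate 2.

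The median summit lay 129 bp upstream (quartiles 235 bp upstream and 10.5 bp upstream), against a median of 98 bp upstream for lower-ranked entries. The fullest 50 bp bin was that from 200 to 150 bp upstream, with 13.9% of the peaks and 8.06% of the lower-ranked entries. From 51 to 250 bp upstream lay 44.9% of the peaks and 33.1% of the lower-ranked entries. Within 100 bp of the TSS on either side the shares were 31.2% and 28.2%, a difference of 2.98 points (Newcombe interval -0.236 to 6.32) that did not pass Fisher's exact test (p = 0.0712). Summits at divergent promoters stood closer in, 49.0% of them within 100 bp and with a median of 83 bp upstream. The pair rule keeps TSSs near each other, and its part in this was not tested.

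**Figure D1:**
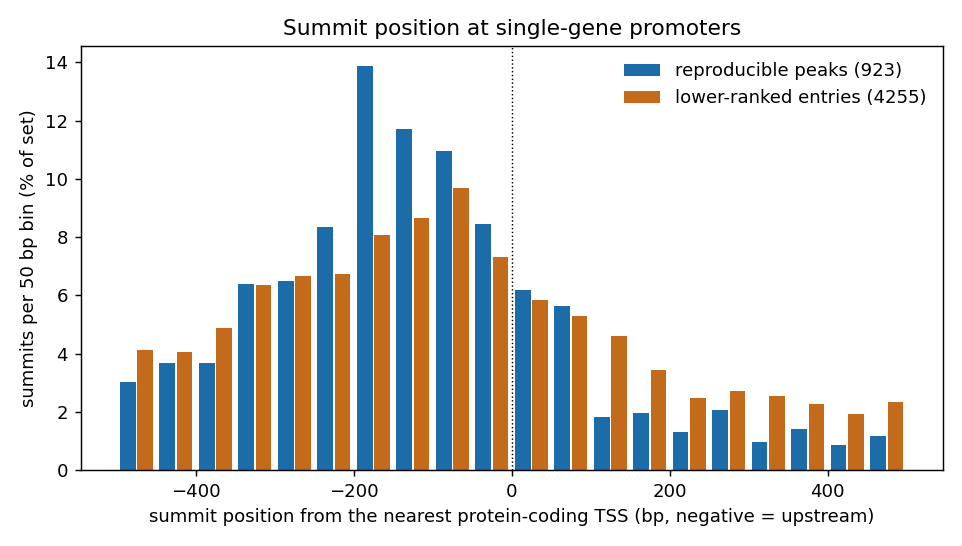
Position of the summit relative to the nearest protein-coding TSS (horizontal axis, bp, negative upstream) as the percent of each set per 50 bp bin (vertical axis), for the 923 reproducible peaks (blue, left bar) and the 4255 lower-ranked pooled entries (orange, right bar) at single-gene promoters. The blue bars are tallest from 200 to 150 bp upstream (13.9% against 8.06%) and fall below the orange ones downstream of 100 bp.

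The strongest peaks stood further upstream than the weakest. Among the 100 peaks of highest signal, 91 were upstream with a median of 183 bp, and their median width was 232 bp. Among the 100 of lowest signal, 71 were upstream with a median of 94.5 bp, and their median width was 410 bp. The signal is the authors' score per peak and is comparable only within a list. It had a median of 136 for upstream and 122 for downstream summits. Of all 923 peaks, 780 had the same width of 410 bp, which was also the widest, so width separates only the narrower, stronger peaks.

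By annotation, 347 summits (37.6%) fell between genes, 339 (36.7%) in introns, 202 (21.9%) in untranslated exons, 30 in exons of non-coding genes and 5 in coding sequence. The intronic share includes promoters inside a gene: 140 summits (15.2%) lay within the span of a gene other than the nearest one. At the limit of the rule, the summits just inside were those at CG32772 and by, both 500 bp upstream with signals of 128 and 105. Those just outside were 501 bp downstream at kuk, with a signal of 309, and 501 bp upstream at scrib, with 98.4.

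The strongest peak was that at ph-p, which encodes a subunit of Polycomb repressive complex 1. Its summit was intronic. The peak spanned chrX:2137198-2137518, with the summit 472 bp upstream of the nearest TSS. Its signal was 1097 in the pooled list, 581 in replicate 1 (rank 11) and 518 in replicate 2 (rank 5). The peak at Hsp27, a small heat shock protein, stood between genes at chr3L:9383734-9384064 with its summit 152 bp upstream, and had a signal of 1013, with 572 in replicate 1 and 445 in replicate 2. The peak at Gapdh2, a glycolytic enzyme, lay at chrX:15867775-15868175 with a signal of 942, with 529 in replicate 1 and 416 in replicate 2. Each of these 3 ranked 15 or better in both replicates.

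Next come the genes among the 25 strongest peaks whose products act in metabolism, transport or nutrient signalling. Lpin, a phosphatidate phosphatase of lipid synthesis, had a signal of 748 (429 in replicate 1, 311 in replicate 2). SLC5A11, a sodium-coupled solute transporter, had 714, and aay, the phosphoserine phosphatase of serine synthesis, had 699. The amino acid transporter gene CG1607 had 483 and REPTOR, a transcription factor held back by TOR complex 1, had 458. These are single peaks named by their rank, not a test of a class of genes.

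Genes that act on RNA and on chromatin followed. larp, an RNA-binding protein, had a signal of 657, and PAN3, a subunit of a poly(A) nuclease, had 530. Hpf1, a partner of the PARP enzyme in histone modification, had 550. Among signalling genes, the phosphatase gene Ptpmeg2 had 605 and the tyrosine kinase gene Btk had 468. Fkbp14, a prolyl isomerase of the endoplasmic reticulum, had 590, and sbb, which encodes a nuclear protein, had 473.

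The remaining peaks among the 25 strongest were nearest to CG1888 (signal 1094), CG18549 (1063), CG14100 (969), CG13921 (804), CG9815 (512), fok (503), CG31145 (501), Tina-1 (499), lawc (483) and CG9399 (465). All 25 were in the leading lists of both replicates, and 23 were upstream. The exceptions were lawc, 55 bp downstream, and CG9399, 72 bp downstream.

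Signal over the whole class ranged from 89.8 to 1097 with a median of 132 (quartiles 106 and 187), against medians of 129 at divergent promoters and 129 outside promoters. Peaks were not replicates, so no test was made of this. Of the 923 summits, 768 (83.2%) were covered by one of the 3401 leading entries of replicate 1 and 736 (79.7%) by one of the same number of replicate 2. Both leading lists held 598 (64.8%, Wilson interval 61.7 to 67.8%), against 63.2% of divergent promoter peaks and 64.3% of peaks outside promoters. The differences were 1.59 points (Newcombe interval -3.36 to 6.61) and 0.488 points (-3.30 to 4.21), and neither passed Fisher's exact test (adjusted p = 0.834 for both). Of the 100 strongest 98 were in both leading lists, and of the 100 weakest 8.

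Across the 906 peaks found in both full lists of 30000 entries, the replicate signals had a Spearman rho of 0.508, and Pearson's r of their log2 values was 0.607. The points are sites of the same pooled list, chosen by its signal, so these values only describe the peaks. Another 17 peaks had no entry over the summit in 1 of the full lists, 13 of them in replicate 2 and 4 in replicate 1. Of the 13, 6 had an entry of replicate 2 over some other base of the peak, and of the 4, 3 had an entry of replicate 1. The strongest of the 17 was at GstE13, a glutathione S-transferase gene, with a pooled signal of 405. It had 260 in replicate 1 but no entry over the summit in replicate 2, and was chosen after its values were seen. Gapdh2 had a further summit 16 bp downstream of its TSS in the same interval as the strong one, with a signal of 166 and no entry over it in replicate 2. It was the 1 interval with more than a single summit of the class.

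**Figure D2:**
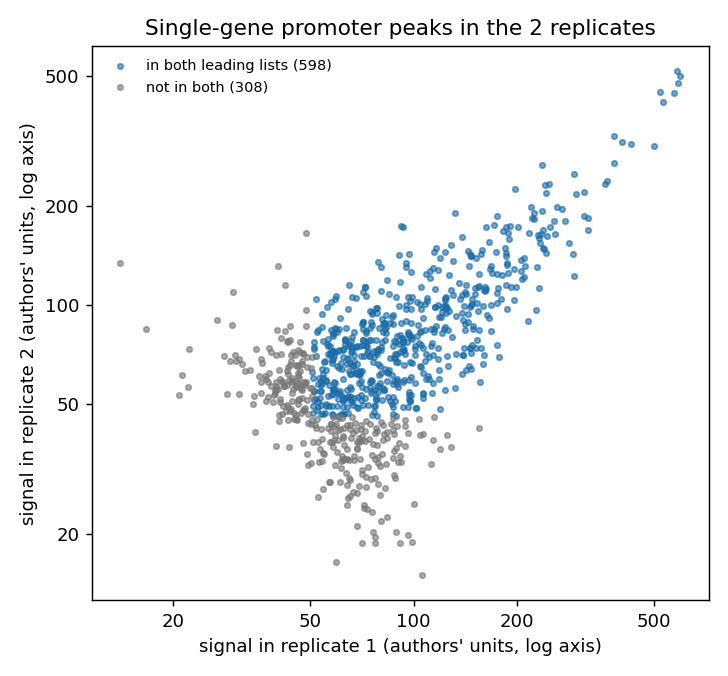
Signal in replicate 1 (horizontal) and replicate 2 (vertical), both on log axes in the authors' units, for the 906 single-gene promoter peaks with an entry over the summit in both full lists. Blue points are the 598 in both leading lists and grey points the other 308; the strongest peaks lie along the diagonal, and below a signal of about 100 the cloud shows little order.

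To see which short sequences marked the peaks, 24 words known as sites of promoter factors and ecdysone-related factors were counted in the 101 bp around each summit and in flanks of equal size 500 bp away. Of these, 3 were called higher at summits (12.5% of 24; McNemar's exact test, two-sided, adjusted over the 24 words, threshold 0.05). The Tbp word TATAAA was in 18.7% of summit windows and 11.3% of flanks (exact adjusted p = 0.000611). The Dref word ATCGATA was in 3.25% and 0.867% (exact adjusted p = 0.0128), and the GATA factor word GATAAG in 8.56% and 4.98% (exact adjusted p = 0.0276). Words called lower numbered 0 of 24 (0%) in this test, with 2 lower at an unadjusted p under 0.05. The test used 1 flank per peak, and other flanks changed which words passed. With the other flank the Beaf-32 word CGATA also passed (McNemar's exact test, adjusted p = 0.00685, against 0.243 in the main test). With flanks at 1000 bp, Motif 6 (exact adjusted p = 0.00848) and the initiator word (exact adjusted p = 0.0102) also passed as higher. There the Pho word passed as lower (exact adjusted p = 0.000135). The Dref and GATA words did not pass among the 1700 strongest peaks (exact adjusted p = 0.395 for Dref and 0.467 for GATA), nor within 25 bp of the summit (exact adjusted p = 0.727 for Dref and 0.413 for GATA).

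Summit windows were richer in A and T, with a mean GC content of 37.2% against 42.3% in the flanks. Over all 2080 words of 6 bases, 61 (2.93%) were called higher at summits and 42 (2.02%) lower. The leading higher words held only A and T: TTAAAA was in 27.8% of summits and 13.7% of flanks (McNemar's exact test, adjusted p = 1.57e-13) and AATATA in 24.7% and 11.8% (adjusted p = 2.54e-10). The other 8 of the 10 leading words also held only A and T and were in 19.5 to 32.4% of summits. The leading lower words were GGAGGA, in 1.08% of summits and 4.50% of flanks (exact adjusted p = 1.10e-05), and CTCCTC, in 1.19% and 4.60% (adjusted p = 5.62e-05). Base composition thus moved with the word shares at summits, and its part in the Tbp, Dref and GATA differences was not tested.

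Set against the other classes, the summits at single-gene promoters differed most from divergent ones in the Tbp word. TATAAA was in 18.7% of single-gene and 31.4% of divergent summit windows (Fisher's exact test, adjusted over 24 words and both classes, p = 1.57e-06), where mean GC content was 37.2% and 32.3%. Motif 7, a promoter word of the form CANCNCTA, was also lower (3.47% and 7.29%, exact adjusted p = 0.0156), but not when the leading peaks of replicate 1 alone were used (3.86% and 6.43%, adjusted p = 0.128). The Trl word GAGAG was higher (14.3% and 8.68%, exact adjusted p = 0.0156), as was the repeat CACACA (9.75% and 5.56%, adjusted p = 0.0340). These made 2 words of 24 called higher (8.33%) and 2 called lower (8.33%). Of the 4, only the Tbp word also passed with the 1700 strongest peaks (exact adjusted p = 0.169 for Trl, 0.781 for Motif 7 and 0.167 for CACACA) and within 25 bp of the summit (exact adjusted p = 0.290 for Trl, 1 for Motif 7 and 0.290 for CACACA). With pairs up to 2000 bp Motif 7 did not pass either (exact adjusted p = 0.138).

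Against peaks outside promoters 1 word of 24 was called higher (4.17%) and 0 lower (0%; 1 at an unadjusted p under 0.05, Fisher's exact test). This was the Dref word, in 3.25% of single-gene promoter summits and 0.683% of summits elsewhere (exact adjusted p = 1.48e-05). It did not pass with the 1700 strongest peaks (exact adjusted p = 0.111) or within 25 bp of the summit (exact adjusted p = 0.0631). GATAAG was in 8.56% and 11.8%, a difference that did not pass (exact adjusted p = 0.0729). With the leading peaks of 1 replicate alone, 4 words (replicate 1) and 2 words (replicate 2) passed in this comparison. The Trl word was among them in each, in 16.2% against 11.5% (exact adjusted p = 0.00838) and in 16.3% against 11.9% (adjusted p = 0.0155).

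The promoters that held a peak were then compared with those that did not. TSSs of 1 gene within 500 bp of each other were joined into 11933 single-gene promoters, of which 915 (7.67%) held a summit of the class and 11009 held no reproducible summit. The Trl word GAGAG was in the window from 250 bp before to 50 bp after the main TSS in 55.1% of promoters with a peak and 35.5% of those without (Fisher's exact test, adjusted over 24 words, p = 1.41e-29). It was the 1 word of 24 called higher (4.17%); 37.0% of all single-gene promoters and 32.9% of all protein-coding promoters held it. Against promoters with only a lower-ranked entry, 43.5% of which held the word, the adjusted p was 8.99e-09. Promoters with a peak and those without had a mean GC content of 42.1% and 40.9%.

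The 1 word called lower (4.17%) was GGAATG, the word of the TEAD factor Scalloped, in 8.0% of promoters with a peak and 11.9% of those without (exact adjusted p = 0.00362). It did not pass with the leading peaks of replicate 1 alone (9.26% and 11.8%, exact adjusted p = 0.0708) or with the 1700 strongest peaks (exact adjusted p = 0.135). The Tbp word, higher at summits, was in 36.9% of promoters with a peak and 40.9% of those without, which did not pass (exact adjusted p = 0.0752), and the Dref word was in 11.8% and 10.1% (adjusted p = 0.235). The Tbp word was lower and passed in 3 of 10 alternatives. With the leading peaks of replicate 1 alone it was in 33.8% and 41.1% (exact adjusted p = 0.000143), and at a promoter distance of 1000 bp in 35.9% and 41.1% (exact adjusted p = 0.00325). In the window from 100 bp before the TSS it was in 12.8% of promoters with a peak and 23.02% of those without (exact adjusted p = 5.89e-13). From 50 to 25 bp before the TSS, where a TATA box usually lies, 3.83% of promoters with a peak and 10.7% of those without held it.

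Longer GA runs gave the same picture over all 6-base words. Of 2080, 188 (9.04%) were called higher at promoters with a peak and 196 (9.42%) lower. The leading higher words were GAGAGA, in 32.7% of promoters with a peak and 15.7% without (Fisher's exact test, adjusted p = 1.95e-30), and AGAGAG, in 34.2% and 17.7% (adjusted p = 5.42e-27). They overlap each other and the Trl word, as do GAGAGC (32.02% and 17.8%), ACTCTC (21.3% and 11.1%), CGAGAG (22.4% and 12.7%) and CTCTCC (20.8% and 11.6%). Other leading higher words did not hold GAGAG on either strand. These were AGAGCG (29.9% and 16.5%), GAGCGA (27.4% and 16.4%), GCGAGA (22.1% and 12.04%) and CGCTGC, which holds no GA run (29.1% and 17.7%). The leading lower words were CAGGAC, in 1.64% and 6.10% (exact adjusted p = 3.20e-08), CCAGGA, in 2.51% and 7.16%, and ATCCTG, in 2.40% and 6.51%.

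Promoters with a peak also held more copies of the Trl word. At least 2 matches were found in 34.6% of promoters with a peak, 22.3% of those with a lower-ranked entry only and 12.3% of those with no entry. At least 5 matches were found in 12.02%, 6.35% and 2.77%. Along the promoter the word was concentrated from 100 to 75 bp before the TSS, where 15.8% of promoters with a peak and 6.89% of those without held it.

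At the summit itself the Trl word was less frequent than in the bins beside it. The 50 bp just downstream of the summit held it in 7.37% of peaks and the 50 bp just upstream in 8.88%. The bins on either side were fuller, with 17.7% from 150 to 100 bp upstream and 14.7% from 100 to 150 bp downstream. The outermost bins, from 450 to 500 bp away, stood near the level at the summit, at 7.80% upstream and 8.13% downstream. Peaks outside promoters showed a like pattern. They held 6.05% just upstream of the summit, 7.41% just downstream, and 11.5% and 11.2% from 100 to 150 bp upstream and downstream. At divergent promoter peaks the same bins held 5.03%, 4.51%, 5.21% and 6.25%. Summit windows had a lower GC content than flanks (37.2% and 42.3%), and its part in the Trl shares was not tested. In the test at summits, the word was in 14.3% of summit windows and 14.7% of flanks, which did not pass (McNemar's exact test, adjusted p = 0.886). The bins with the highest shares thus lay beside the summit, and at promoters close to the TSS.

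**Figure D3:**
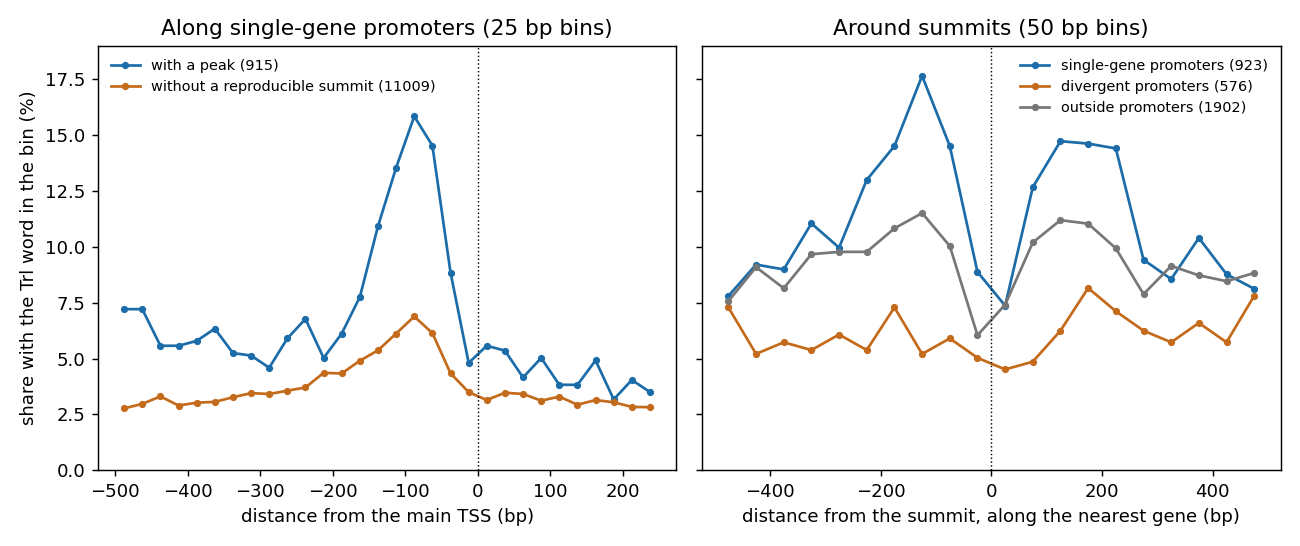
Share of promoters or peaks with the Trl word in each bin (vertical axes, %). Left, 25 bp bins by distance from the main TSS (horizontal, bp) for 915 single-gene promoters with a peak (blue) and 11009 without a reproducible summit (orange), highest at 15.8% and 6.89% from 100 to 75 bp upstream; right, 50 bp bins by distance from the summit for peaks at single-gene promoters (blue), at divergent promoters (orange) and outside promoters (grey), with the blue line at 7.37% just downstream of the summit and 17.7% from 150 to 100 bp upstream.

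The share with the Trl word was lowest in promoters with no entry and highest in those with the strongest peaks. It was 31.7% (Wilson interval 30.6 to 32.7%) with no entry, 43.5% (41.8 to 45.1%) with a lower-ranked entry only, 48.9% (42.5 to 55.3%) in the 231 promoters whose peaks were weakest and 64.0% (57.6 to 70.0%) in the 228 whose peaks were strongest. The 2 classes of promoters between these, 228 each, stood at 54.4% and 53.1%. Of the 100 promoters with the strongest peaks, 70 held it. The Dref word ran the other way among promoters with a peak, at 19.05% (14.5 to 24.6%) in the 231 with the weakest peaks and 7.46% (4.71 to 11.6%) in the 228 with the strongest, beside 9.27% with no entry. No test was made of these trends.

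**Figure D4:**
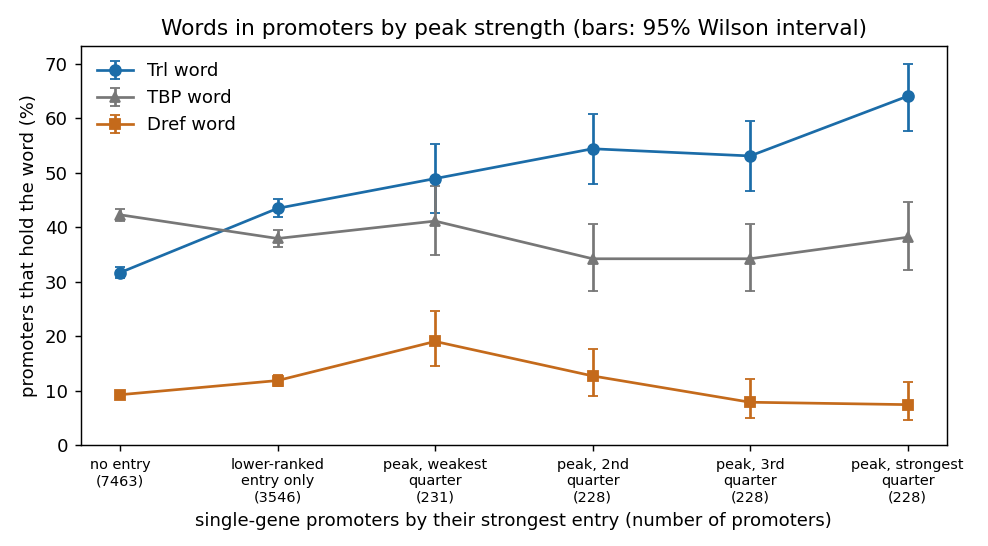
Percent of single-gene promoters that hold the Trl, Tbp or Dref word (vertical axis, bars are 95% Wilson intervals) for promoters with no entry, with a lower-ranked entry only, and with a peak in 4 classes by signal from weakest to strongest (horizontal axis, number of promoters in brackets). The Trl word stands at 31.7% with no entry and 64.0% in the strongest class, and the Dref word at 19.05% in the weakest and 7.46% in the strongest class.

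Genes with a peak were longer and had more promoters than the rest. Of 9563 genes with a single-gene promoter, 799 (8.36%) held a summit of the class. Their median span was 7060 bp, against 2129 bp for the other genes, and 51.9% of them had several promoters against 17.9% of the others. A gene with more promoters offers more positions for a peak, and its part in the difference was not tested. Where a gene had several promoters, the peak was at the most upstream one in 31.5% of cases, against 32.6% of all such promoters.

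Most genes had a single peak: 669 of the 781 nearest genes had 1, 90 had 2, and 22 had 3 or more. SNF4Agamma, the gamma subunit of AMP-activated kinase, and cnc, a bZIP factor of the response to oxidative stress, had 5 each. At SNF4Agamma, which spans 73531 bp and has 9 promoters, the summits lay 189 bp upstream (signal 278), 369 bp downstream (121), 80 bp upstream (127), 190 bp upstream (139) and 270 bp upstream (171) of 5 TSSs. All 5 were in both leading lists. At cnc the signals were 91.8 to 172, and 4 of the 5 were in both leading lists.

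There were 4 peaks each at PAN3, Svil, Eip75B and spri, and 3 each at Ptpmeg2 and Syp. At the ecdysone-induced nuclear receptor gene Eip75B, which has 7 promoters over 113744 bp, 4 TSSs had a summit within 500 bp, with signals of 213, 114, 105 and 101. At Ptpmeg2 the 3 summits were 168, 204 and 202 bp upstream of 3 TSSs, with signals of 221, 605 and 329, all in both leading lists. One of the 4 at PAN3 differed most between replicates, with a signal of 14.0 in replicate 1 and 135 in replicate 2.

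Gene lists written for ecdysone response, metabolism, chromatin and common cell functions were counted next, beside the share over all genes with a single-gene promoter, 8.36%. Over the 24 lists, 76 of 702 distinct genes with such a promoter held a peak. The strongest peak of 53 of the 76 was in both leading lists, and 66 lay upstream. Over all 923 peaks these shares were 64.8% and 76.6%. They were 98% and 91% in the 100 strongest peaks and 8% and 71% in the 100 weakest. Only each gene's strongest peak was counted for the lists, and the part of this in the shares was not tested. No set test was made, and a list says nothing about expression. The lists were written with earlier results of these data known. Listed genes were not matched to all genes in length or number of promoters, and the part of these in the shares was not tested.

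Ecdysone receptors and early factors had a peak at 10 of 19 genes (52.6%, Wilson interval 31.7 to 72.7%), 8 of them in both leading lists. E23, an ecdysone-induced ABC transporter, had a signal of 417 (224 in replicate 1, 191 in replicate 2). Eip75B had 213 (156 and 58.3 in replicates 1 and 2), EcR, the ecdysone receptor, 172 (87.4 and 77.8), and its coactivator tai 163 (120 and 36.3). Eip93F itself held 1 peak of the class, at chr3R:21972137-21972546, with its summit 37 bp upstream of an internal TSS. Its signal was 148, with 74.0 in replicate 1 and 78.4 in replicate 2. The upstream TSS of Eip93F at 21949114 had no summit within 500 bp.

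Glycolysis had a peak at 8 of 13 genes (61.5%, 35.5 to 82.3%), all 8 upstream and 7 in both leading lists. Besides Gapdh2, Eno (enolase) had a signal of 385, Hex-A (hexokinase) 350 and Ldh (lactate dehydrogenase) 296. In the insulin and TOR list 6 of 21 genes had a peak (28.6%), among them Sesn, which restrains TOR complex 1, at 406, the insulin-like peptide gene Ilp6 at 240, the kinase subunit gene Pi3K21B at 199 and Pdk1 at 158. The mitochondrial respiratory chain had 0 of 46, which allows a share of up to 6.52% by the limit of 3 counts used here for a count of 0 (upper Wilson bound 7.71%).

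Heat shock proteins and chaperones had a peak at 8 of 18 genes (44.4%, 24.6 to 66.3%), 5 of them in both leading lists. The share was 22.2% at a promoter distance of 250 bp and 16.7% with the 1700 strongest peaks. The small heat shock genes Hsp27, Hsp23 and Hsp26, which lie in 1 cluster, had signals of 1013, 186 and 162. Hsp67Ba (119) and Hsp22 (105) lie in the same cluster, within chr3L:9373390-9384064. The Wilson interval counts each gene as separate, which neighbours at 1 locus may not be. The mitochondrial chaperone gene Hsp60A had 127, and the Hsp70 genes of the list held no peak of the class. The cell death list had 6 of 16 (37.5%). It included the oxidase gene Duox at 221, the pro-apoptotic gene hid at 219, with 123 in replicate 1 and 86.0 in replicate 2, the TNF ligand gene egr at 184 and the caspase gene Strica at 114. The others were the death inhibitor gene Diap1 at 112 and wgn at 105. Listed genes that held no peak of the class included rpr, grim, skl, Dcp-1, Decay and Damm. Autophagy had 0 of 7, where the limit of 3 counts allows up to 42.9% (upper Wilson bound 35.4%).

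Among chromatin regulators, the Polycomb group had a peak at 4 of 11 genes (36.4%, 15.2 to 64.6%), all in both leading lists: ph-p, jing at 157, corto at 143 and ph-d, the neighbour and paralog of ph-p, at 138. The Trithorax group and Brahma complex had 4 of 15 (26.7%), namely tna at 226, fs(1)h at 106, Trl at 90.8 and Utx at 90.5. Of these 4, 2 were in both leading lists. Those at Trl and Utx, near the lowest signal of the class (89.8), were not. Trl is the gene of GAGA factor itself, and its summit lay 157 bp downstream of a TSS with 52.9 in replicate 1 and 38.1 in replicate 2.

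The cell cycle list had 5 of 22 (22.7%), with E2f1, which drives entry into S phase, at 235, CycG at 125, Cdk12 at 121 and Dp at 119. The actin and tubulin cytoskeleton had 6 of 27 (22.2%), all in both leading lists, with sqh, the myosin regulatory light chain, at 273, chic (profilin) at 175, Tm1 at 164 and Moe at 145. Lists near the background share were the cytoplasmic ribosomal proteins (5 of 39, 12.8%), general transcription and Mediator (2 of 16, 12.5%), the vacuolar proton pump (2 of 20, 10%), Rab GTPases (2 of 22, 9.09%), translation factors (2 of 24, 8.33%) and muscle (2 of 26, 7.69%). None of the 5 ribosomal protein peaks, the highest of which were RpS23 at 114, RpL27 at 106, RpL24 at 104 and RpS27A at 103, was in both leading lists. The summit at RpS27A was nearer to the TSS of its neighbour Ip259.

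The other peaks named from these lists had signals on both sides of the class median of 132: eIF6 at 393 and pAbp at 185 among translation factors, Rab5 at 314 and Rab32 at 100 among Rab genes, Msp300 at 250 in muscle, Vha16-1 at 169 and VhaSFD at 135 in the proton pump, and Trf2 at 105 and Tbp at 101 in general transcription. Wing patterning and growth had 2 of 31 (6.45%), Dll at 328 and Dad at 113, and neuron 1 of 19 (5.26%), elav at 392. The proteasome had 1 of 24 (4.17%), Prosalpha5 at 108. The cuticle proteins had 1 of 109 (0.917%), Cpr72Eb at 99.8, and the chemosensory receptors 0 of 154, which allows a share of up to 1.95% by the limit of 3 counts (upper Wilson bound 2.43%). Salivary gland glue genes and nuclear splicing factors had 0 of 5 each, which allows up to 60% by the same limit (upper Wilson bound 43.4%). Leaving out 1 replicate moved several of these small counts. With the leading peaks of replicate 2 alone, the ribosomal proteins stood at 2.56%, Rab GTPases at 4.55%, general transcription at 6.25% and splicing factors at 20%. With those of replicate 1 alone, general transcription stood at 25%, autophagy at 14.3% and the proteasome and cuticle proteins at 0%.

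**Figure D5:**
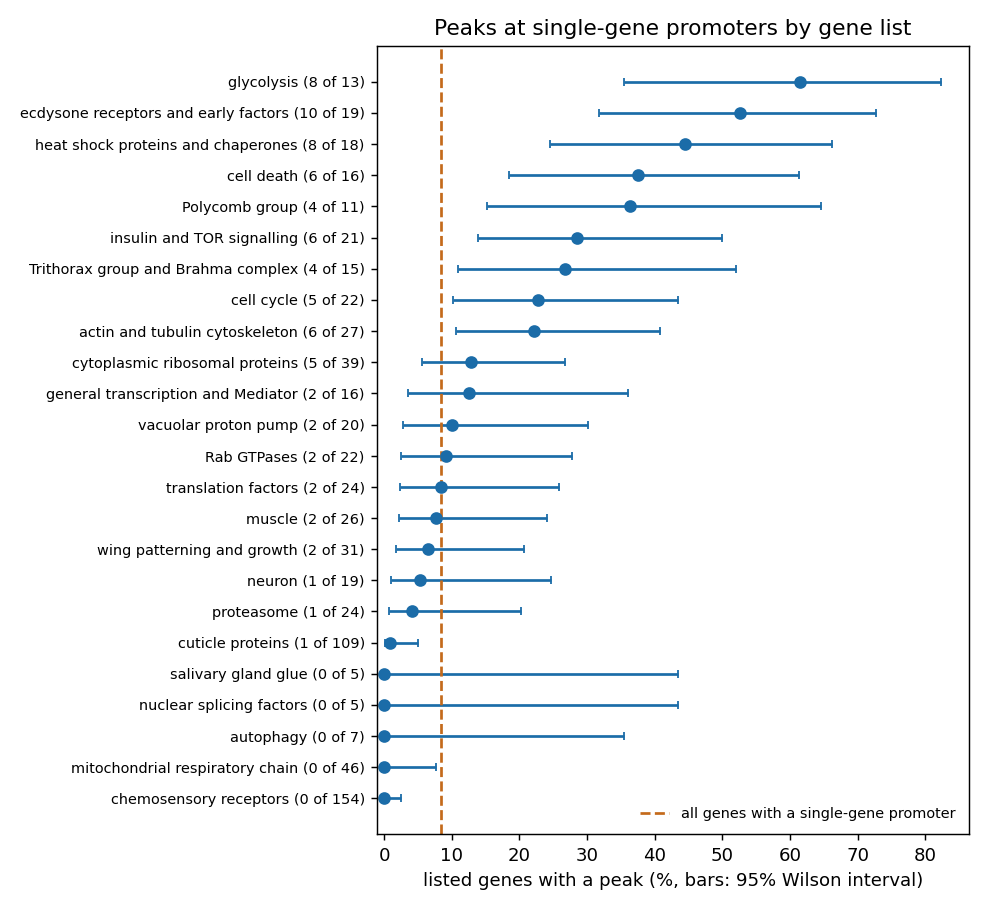
Percent of listed genes with a single-gene promoter that held a peak (horizontal axis, bars are 95% Wilson intervals) for the 24 gene lists (vertical axis, counts in brackets); the dashed line marks 8.36%, the share over all 9563 genes. Glycolysis (61.5%) and the ecdysone list (52.6%) stand highest, and the chemosensory receptors stand at 0 of 154.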

How the data were processed

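Eip93F-GFP ChIP-seq was deposited for 2 biological replicates of whole prepupae. Per the file headers and labels, the authors deposited ranked peak lists on dm6: 30000 entries per replicate and for the pooled reads, and a reproducible set of 3401 peaks, each with a signal value. The labels and headers used here name no peak caller or aligner, and lists on dm3 were not used. Depth is unknown, and width and rank depend on the caller. A control named in the labels was not analysed here. The members and lists were chosen with earlier results of these data known.

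TSSs were 5′ ends of all transcripts of protein-coding genes (Ensembl release 115, BDGP6.54, the dm6 assembly), and sequence came from the RefSeq copy of dm6. Peaks were matched to replicate lists by summit. Words were sought on both strands: in addition to those spelled out in the report, Beaf-32 had the word CGATA, Motif 1 had GTCACAC, Motif 6 had GTATNTTT, the E-boxes had CAGCTG in one form and CACGTG in the other, the initiator had TCAGT, the downstream element had GACGTG, nuclear receptors had AGGTCA, FTZ-F1 had CAAGGTCA, AP-1 had TGANTCA, CRE had TGACGTCA, Zelda had CAGGTAG, Pho had GCCAT, Ets factors had CCGGAA, the heat shock element had GAANNTTC, Grainy head had AACNGGTT and STAT had TTCNNNGAA. The Beaf-32 word lies inside the Dref word and the nuclear receptor word inside the FTZ-F1 site. Each summit was set against 1 flank drawn with a fixed seed, and the mean of both flanks was printed. McNemar's and Fisher's exact tests treat each peak or promoter as 1 unit and describe spread between sites of 1 pooled list, not between animals. Tests were checked on simulated sequences with equal shares of each base in every group. The check therefore says nothing about the tests under a difference in GC content such as that at summits. Genes named were those nearest the 25 strongest peaks, up to 4 per list, the 8 with most peaks, the 4 at the distance limit and Eip93F. Hsp67Ba, Hsp22 and the Hsp70 genes were named to describe the heat shock list. Diap1, wgn, rpr, grim, skl, Dcp-1, Decay and Damm were named to describe the cell death list. Sequences were those of the strongest peaks and of peaks or promoters that held a called word, and GstE13 and tal-1A were chosen after their values were seen. Python 3.11.15 with numpy 2.4.6, scipy 1.17.1 and statsmodels 0.14.6 was used. Alternatives were other promoter and pair distances, each replicate alone, the 1700 strongest peaks, other overlaps, windows and flanks, and 3 settings added after seeing the data.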

Additional observations from a re-analysis of the deposited data

How the results depend on the processing

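No analysis of paired samples was possible because the series has a single group. Pairing was used only between a summit and its own flank. The share of summits upstream, the Tbp word at summits and the Trl word at promoters passed under every alternative run for them, and recurrence against the other classes passed under none. Summits within 100 bp of a TSS passed at a promoter distance of 1000 bp (23.8% against 18.3%, p = 1.46e-05, Fisher's exact test). GATAAG did not pass in 5 of 12 alternatives, among them promoter distances of 250 bp and both other pair distances, and CACACA against divergent promoters in 5 of 10. At promoters, a window from 100 bp before the TSS was also used. In it GATAAG was in 7.65% of promoters with a peak and 10.1% of those without (Fisher's exact test, adjusted p = 0.0416). In the window from 250 bp the shares were 18.4% and 17.9%, which did not pass (exact adjusted p = 0.838). The cause of these changes was not tested.

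Counts of called words changed most. The 1700 strongest peaks gave 482 members and 4.58% of genes. In them 1 word was called higher at summits, 36 and 6 words of 6 bases higher and lower, 1 and 0 words against divergent peaks and peaks elsewhere, and, at promoters, 2 words higher, 0 lower and 114 and 69 words of 6 bases. Preset words at summits numbered 5 higher and 1 lower at a promoter distance of 1000 bp and again with flanks at 1000 bp, 1 and 1 within 25 bp of the summit, and 6 higher within 100 bp. Words of 6 bases at summits numbered 35 and 20 at 250 bp, 34 and 13 within 25 bp and 37 higher with the other flank; 106 were lower within 100 bp and 86 with flanks at 1000 bp. Windows of 25 bp gave 1 and 0 words against divergent peaks and peaks elsewhere, windows of 100 bp 9 and 5, and pairs up to 2000 bp 2 against peaks elsewhere. At promoters, words called higher and lower numbered 5 and 5 at 1000 bp, 7 and 3 with pairs up to 500 bp, 2 and 2 with pairs up to 2000 bp, and 5 and 4 in the window from 100 bp. Against promoters with a lower-ranked entry only, 28 and 19 words of 6 bases passed. The share of genes was 6.31% at 250 bp, 9.98% at 1000 bp, and 9.04% and 8.22% with pairs up to 500 and 2000 bp, and the median signal relative to all peaks was 1.02, against 1.01 with pairs up to 500 bp.

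Shares of listed genes ranged over the alternatives from 38.5 to 61.5% for glycolysis, 36.8 to 63.2% for the ecdysone list, 16.7 to 50% for heat shock proteins and chaperones, 18.8 to 44.4% for cell death and 27.3 to 45.5% for the Polycomb group. With the 1700 strongest peaks the Trithorax list stood at 6.67% and the cell cycle list at 4.55%, beside 4.58% of all genes.

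With the leading peaks of either replicate alone, the class held 933 to 950 peaks and 8.45 to 8.5% of genes, and the median signal relative to all peaks of the list was 1.02 to 1.03. Words of 6 bases at summits numbered 39 to 42 higher and 24 to 33 lower. Preset words against peaks elsewhere numbered 2 to 4, and those at promoters 1 to 5 higher and 1 to 2 lower. Peak lists limit what can be said: no read counts, 1 group, and no control list analysed here.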

Other observations

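Peaks at single-gene promoters were spread over all chromosome arms. Of the single-gene promoters, 8.38% held a peak on the X (170 of 2029, Wilson interval 7.25 to 9.66%) and 7.52% on the other chromosomes together (745 of 9904, 7.02 to 8.06%). The arms 2L, 2R, 3L and 3R stood between 7.20% and 7.80%, and chromosome 4 had 3 of 95 (3.16%, 1.08 to 8.88%).

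Non-coding genes shared some of these promoters. A TSS of a non-coding gene lay within 500 bp of 70 summits (7.58%), of which 61 had a ncRNA TSS, 4 a tRNA TSS, 3 a snoRNA TSS and 3 a pseudogene TSS, and a summit may count under more than 1 kind. The summit with the most protein-coding genes near it, 4, lay 96 bp upstream of tal-1A, at chr3R:13812808-13813217, with a signal of 178. It is 1 of 21 summits with 2 or more protein-coding genes within 500 bp, and for these the nearest gene is only 1 of the possible neighbours.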
